A study of Danio rerio with 8 samples.

Results

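The cytochrome P450 genes of zebrafish (Danio rerio) liver were described at 3 temperatures. Members were all probes whose gene symbol in the platform annotation starts with cyp and a digit, without the sterol synthesis gene cyp51, whose 2 probes were left out. This rule, which uses no measured value, took 111 of 43603 probes, and these belong to 70 genes among 35434 features (a feature is a named gene, or a probe without a gene name). The genes were grouped by family number into family 1 (5 genes), family 2 (31), family 3 (4), family 4 (4), the steroid families 11, 17, 19 and 21 (7), the bile acid families 7, 8 and 27 (8), the vitamin families 24 and 26 (4) and other families, namely 20, 39 and 46 (7). A RefSeq gene table lists 86 zebrafish P450 genes when cyp51 is set aside, and 17 of these had no member here and were not analysed.

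Cytochrome P450 enzymes carry a haem group and use it to insert an oxygen atom into lipophilic molecules. Most sit in the endoplasmic reticulum and draw their electrons from P450 oxidoreductase, and the mitochondrial ones draw them from ferredoxin. Families 1 to 3 are best known in liver for the oxidation of drugs, pollutants and steroids, and family 4 for that of fatty acids. Other families make steroid hormones and bile acids or break down vitamin D and retinoic acid.

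The labels give all samples as liver, with 2 RNA samples each from 18, 26 and 34 °C on day 28 and 1 from 26 °C on day 4. They call the replicates biological and give no strain, age, sex, number of fish per sample or rate of the temperature change. The 7 RNA samples were joined by 8 arrays with a red and a green channel in a loop, and the series served to choose probes for a custom temperature array. The values below are log2 levels of a gene in an RNA sample relative to its mean over the 7 samples, so a level shows where a gene was high or low and not how abundant its transcript was. Where values are listed by group, replicate 1 comes first. The ratios were taken as red (Cy5) over green (Cy3), as limma defines them and as the order of names in the array titles implies. The labels do not state this, and every sign would turn if it were the other way.

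The liver label was checked with marker genes, because their levels differed between temperatures. The median level of 24 hepatocyte markers was -0.46 and -0.96 at 18 °C, 0.13 and -0.29 at 26 °C, 1.09 and 0.34 at 34 °C and -0.03 on day 4. For 26 oocyte markers it was 0.77 and 1.61 at 18 °C, 0.02 and 0.19 at 26 °C, -1.16 and -0.76 at 34 °C and -0.31 on day 4. Hepatocyte markers were thus highest and oocyte markers lowest at 34 °C, and the 18 and 34 °C samples did not overlap in either median. For 27 markers of the exocrine pancreas, a tissue that adjoins the liver in fish, the median was -1.42 and -0.33 at 18 °C, 0.76 and -1.18 at 26 °C, 0.88 and 0.22 at 34 °C and 0.93 on day 4, so that it also split the 26 °C replicates. The part of these other tissues in the P450 results was not tested. In bulk RNA, fewer cells of a type and less RNA per cell cannot be told apart.

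Most P450 genes that varied had higher levels at 34 °C than at 18 °C, and the steroid family was the group that leaned the other way. At 34 °C against 18 °C, 53 of the 70 genes had a positive log2 difference and 17 a negative one, with a median of 0.10 against 0.001 over all features. In 33 genes (47.1%) both 34 °C samples lay above both 18 °C samples, where 18.3% of all features did, and in 8 (11.4%) both lay below, where 18.6% did. A mean difference of at least 2-fold upward was found for 8 P450 genes (11.4%; 2.51% of all features) and downward for 1, cyp11a1.1 (1.97% of all features).

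No P450 gene passed the threshold, an adjusted p of 0.05 over all features in limma's moderated test of the sample levels, at 34 °C against 18 °C. By the same test 0.982% of all features passed. The lowest adjusted p among the 70 genes was 0.0607 (cyp3a65). At an unadjusted p under 0.05 there were 24 P450 genes (34.3%) against 13.9% of all features and 23.4% of those with a gene symbol; 20 were higher at 34 °C (6.14% of all features) and 4 were lower (7.71% of all features). That count was 15 without the first 18 °C sample, 14 without the array of the first 34 °C against the first 18 °C sample, and 9 when either array of the day 4 sample was left out. When limma was run on the 8 arrays directly, which takes arrays that share an RNA sample as independent, 17 P450 genes passed (15 higher and 2 lower) against 8.45% of all features.

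**Figure D1:**
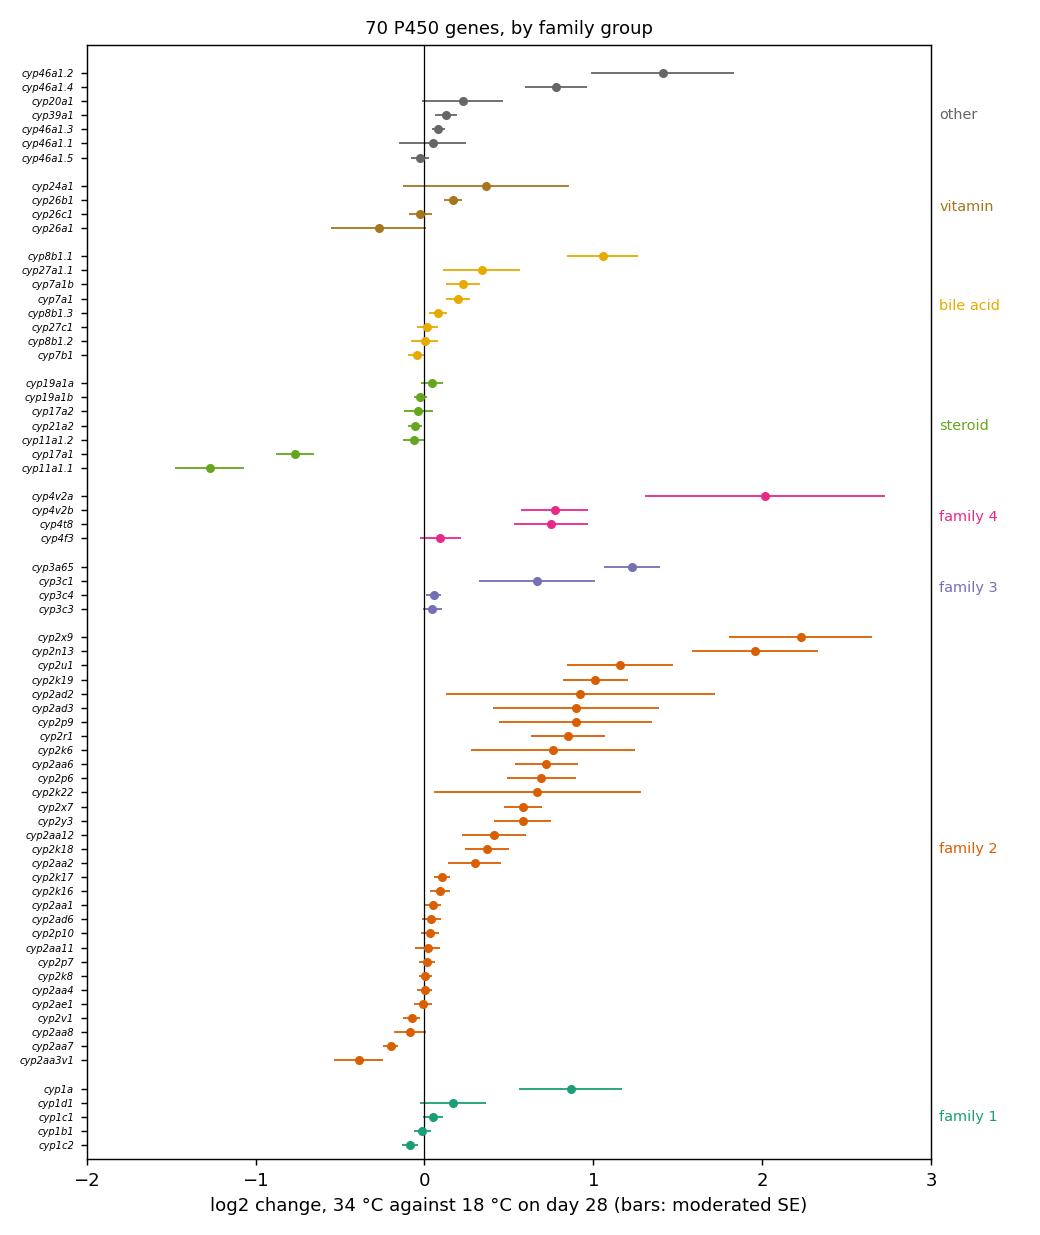
Log2 change at 34 °C against 18 °C on day 28 (x axis) for each of the 70 P450 genes (y axis), grouped by family; dots are the difference of the group means (n = 2 against 2) and bars its moderated standard error. The points reach from -1.27 (cyp11a1.1) to 2.23 (cyp2x9), with 53 right of 0.

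The P450 genes also spread more across the 7 samples than the features at large. The highest and lowest level of a gene were under 0.3 apart in 31 P450 genes (44.3%), which are called flat here, against 70.2% of all features and 54.2% of those with a gene symbol. They were at least 1 apart in 23 (32.9%) against 9.82% of all features and 16.5% of those with a gene symbol. Among these 23, both 34 °C samples exceeded both 18 °C samples in 20 (87%; 38.9% of all features with such a range), the reverse held in cyp11a1.1 (4.35%; 37.5% of all such features), and the groups overlapped in cyp2ad2 and cyp2k22. The table holds ratios without signal intensities, so that a flat gene near background cannot be told from an expressed gene that did not change. In 49 of the 70 genes the first 34 °C sample lay above the second, a count that was not made over all features. The first 34 °C sample was the highest of all 7 for 30 of the 70 genes, and for 6254 of all 35434 features. The hepatocyte marker median was likewise higher in the first 34 °C sample (1.09) than in the second (0.34).

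In family 1, whose enzymes oxidise aromatic pollutants, cyp1a stood apart from the others. The level of cyp1a, the classic target of the aryl hydrocarbon receptor, was -0.41 and -0.69 at 18 °C, 0.12 and -0.28 at 26 °C, 0.71 and -0.08 at 34 °C and 0.62 on day 4. Both 34 °C samples lay above both 18 °C samples, but one was near the 26 °C level and the day 4 sample at 26 °C was almost as high as the top one. That day 4 level came from 1 of the 3 probes of cyp1a, which stood at 1.96, while the other 2 stood at -0.09 and -0.005. The same probe gave the largest change at 34 °C against 18 °C, 1.53, beside 0.28 and 0.79 for the others. In the probe with 0.28 these groups overlapped. The difference of 34 °C against 18 °C was 0.87 ± 0.31 (SE, n = 2 against 2; adjusted p = 0.317). For cyp1d1 the levels were -0.10 and 0.10 at 18 °C, 0.01 and -0.33 at 26 °C, 0.39 and -0.05 at 34 °C and -0.03 on day 4, and the groups overlapped. The remaining genes, cyp1b1, cyp1c1 and cyp1c2, were flat.

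Family 2 was the largest group, with 31 genes. It includes fish subfamilies (cyp2aa, cyp2ad, cyp2k, cyp2n, cyp2p, cyp2v, cyp2x, cyp2y) beside cyp2r1, whose human counterpart hydroxylates vitamin D, and cyp2u1, whose human counterpart hydroxylates fatty acids. At 34 °C against 18 °C, 26 of these genes had a positive difference, with a median of 0.37. Both samples lay higher in 17 (54.8% against 18.3% of all features). Both lay lower in 3, namely cyp2aa3v1, cyp2aa7 and cyp2v1 (9.68% against 18.6% of all features). There were 12 flat genes and 12 with a range of at least 1.

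The widest range in family 2 belonged to cyp2x9. Its level was -1.58 and -0.60 at 18 °C, 0.14 and -0.11 at 26 °C, 1.54 and 0.74 at 34 °C and -0.15 on day 4. The 3 temperatures followed each other without overlap. The difference of 34 °C against 18 °C was 2.23 ± 0.43 (4.68-fold, n = 2 against 2; adjusted p = 0.103). The neighbouring cyp2x7 had levels of -0.48 and -0.29 at 18 °C, 0.26 and 0.18 at 26 °C, 0.07 and 0.33 at 34 °C and -0.07 on day 4. It was low at 18 °C, and its 26 and 34 °C samples overlapped. This gave 0.58 ± 0.11 at 34 °C against 18 °C (adjusted p = 0.107) and -0.60 ± 0.11 at 18 °C against 26 °C (adjusted p = 0.546).

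The level of cyp2n13 was -0.42 and -1.25 at 18 °C, -0.40 and 0.18 at 26 °C, 1.37 and 0.87 at 34 °C and -0.35 on day 4. Its 34 °C samples stood clear of all others, and its replicates differed at 18 and 26 °C. The differences were 1.96 ± 0.37 against 18 °C (3.88-fold; adjusted p = 0.103) and 1.23 ± 0.37 against 26 °C (adjusted p = 0.433). For cyp2k19 the levels were -0.46 and -0.59 at 18 °C, 0.10 and -0.09 at 26 °C, 0.75 and 0.22 at 34 °C and 0.07 on day 4. The temperatures again followed each other without overlap, with 1.01 ± 0.19 at 34 °C against 18 °C (adjusted p = 0.101) and -0.53 ± 0.19 at 18 °C against 26 °C (adjusted p above 0.99). The difference at 34 °C against 18 °C was 1.16 ± 0.31 (adjusted p = 0.197) for cyp2u1 and 0.85 ± 0.22 (adjusted p = 0.180) for cyp2r1, both without overlap of these groups.

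Further family 2 genes had other patterns. The level of cyp2ad2 was -0.34 and -0.43 at 18 °C, 0.95 and -0.14 at 26 °C, 1.61 and -0.54 at 34 °C and -1.11 on day 4. Its replicates were over 1 log2 unit apart at 26 and at 34 °C, in both cases with replicate 1 higher, and the groups overlapped (0.92 ± 0.80 at 34 °C against 18 °C, adjusted p = 0.794). In cyp2k22 the 18 °C replicates lay at 0.22 and -1.26. The level of cyp2aa7 was 0.003 and 0.003 at 18 °C, 0.08 and 0.04 at 26 °C, -0.23 and -0.17 at 34 °C and 0.27 on day 4. It moved by little, but its replicates were close and both 34 °C samples were the lowest. It had the smallest p of the P450 genes at 34 °C against 26 °C (-0.25 ± 0.04, adjusted p = 0.251). When a sample or an array was left out, this difference ran from -0.58 to -0.22, a wider spread than its SE.

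**Figure D2:**
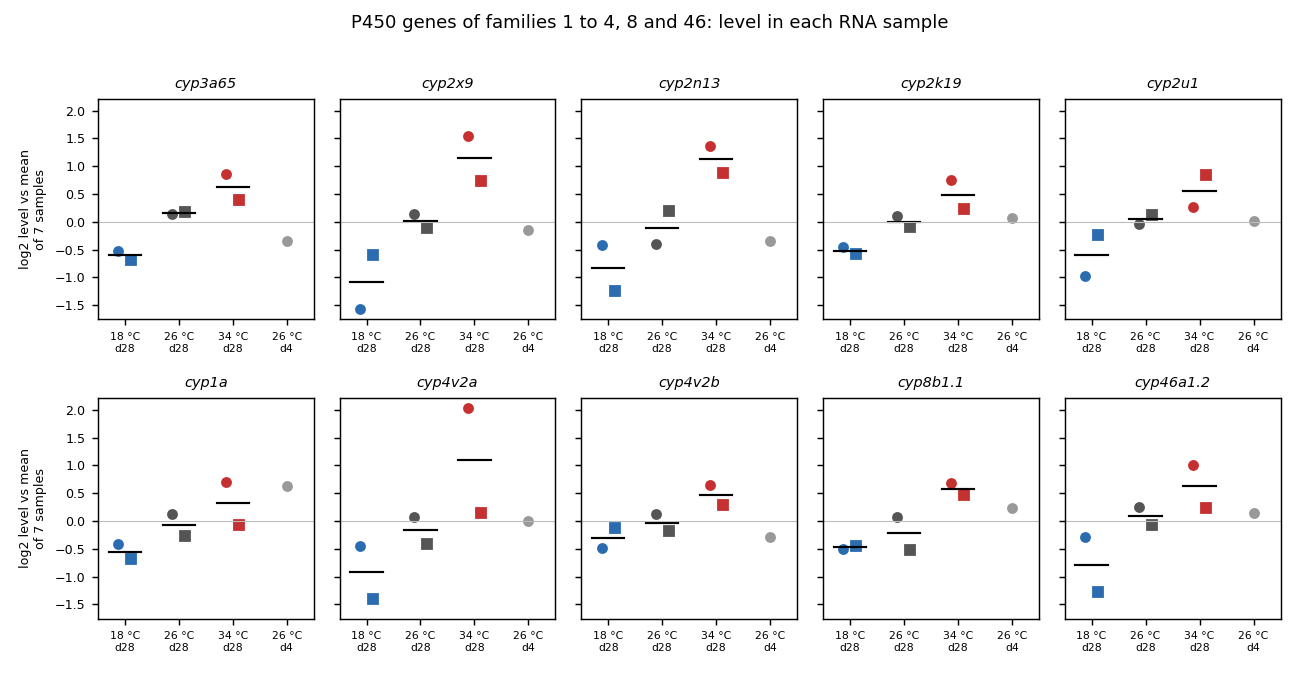
Log2 level relative to the mean of the 7 RNA samples (y axis) by temperature and day (x axis) for 10 P450 genes; circles are replicate 1, squares replicate 2 and lines group means. In each gene both 34 °C points lie above both 18 °C points, and the 34 °C replicates lie far apart in cyp4v2a (2.03 and 0.15) and closer in cyp8b1.1 (0.69 and 0.47).

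In family 3, cyp3a65 had the smallest p of all 70 genes at 34 °C against 18 °C. It belongs to the CYP3A subfamily, whose human members oxidise steroids and a large share of drugs. The level of cyp3a65 was -0.53 and -0.68 at 18 °C, 0.14 and 0.17 at 26 °C, 0.86 and 0.39 at 34 °C and -0.35 on day 4. The temperatures followed each other without overlap on day 28, and the day 4 sample at 26 °C lay below both day 28 samples. The difference was 1.23 ± 0.16 at 34 °C against 18 °C (2.34-fold, n = 2 against 2; adjusted p = 0.0607), and -0.76 ± 0.16 at 18 °C against 26 °C (adjusted p = 0.611). Over the 23 other settings the adjusted p at 34 °C against 18 °C ran from 0.00763 (arrays taken as independent) to 0.347 (arrays scaled to a common spread). It was 0.0480 when only features with a gene symbol were tested. It was 0.0449 without the second 34 °C sample, where the lone 34 °C sample is assumed to vary like the other groups, and 0.344 without the array that joins the first 34 °C and first 18 °C samples.

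The fish subfamily cyp3c was less variable. The level of cyp3c1 was -0.16 and -0.28 at 18 °C, 0.36 and -0.45 at 26 °C, 0.76 and 0.13 at 34 °C and -0.38 on day 4. Its 26 °C replicates lay far apart, on either side of both 18 °C samples (0.67 ± 0.34 at 34 °C against 18 °C, adjusted p = 0.557). Both cyp3c3 and cyp3c4 were flat.

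Family 4 had no flat gene and the highest group median at 34 °C against 18 °C, 0.76. Both 34 °C samples exceeded both 18 °C samples in 3 of its 4 genes (75% against 18.3% of all features). The level of cyp4v2a, whose human counterpart CYP4V2 hydroxylates fatty acids, was -0.45 and -1.40 at 18 °C, 0.08 and -0.41 at 26 °C, 2.03 and 0.15 at 34 °C and about 0 on day 4 (-0.003). This was the widest range of any P450 gene, and most of the high end came from the first 34 °C sample. The difference was 2.02 ± 0.71 (4.05-fold; adjusted p = 0.318). Its paralogue cyp4v2b had levels of -0.48 and -0.13 at 18 °C, 0.13 and -0.18 at 26 °C, 0.65 and 0.29 at 34 °C and -0.28 on day 4. Here too the 34 °C samples were the highest, with 0.77 ± 0.20 against 18 °C (adjusted p = 0.177). The value for cyp4t8 was 0.75 ± 0.22 (adjusted p = 0.230), and that for cyp4f3 was 0.09 ± 0.12 (adjusted p = 0.884).

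Among the steroid genes, 2 were lower at 34 °C and 5 were flat. The level of cyp11a1.1, which encodes the side-chain cleavage enzyme that opens steroid synthesis from cholesterol, was 0.40 and 0.82 at 18 °C, 0.04 and 0.36 at 26 °C, -0.52 and -0.81 at 34 °C and -0.28 on day 4. That of cyp17a1, whose enzyme leads on to androgens, was 0.32 and 0.42 at 18 °C, 0.25 and 0.10 at 26 °C, -0.54 and -0.27 at 34 °C and -0.28 on day 4. In the mean of their probes, both genes stepped down from 18 to 26 to 34 °C without overlap. At 18 °C against 26 °C the single probes differed in sign for cyp17a1 (-0.21 to 0.43) and gave 0.18 to 0.79 for cyp11a1.1. These 2 of the 70 genes (2.86%) are a share near that of all features with this order (3.77%). The difference at 34 °C against 18 °C was -1.27 ± 0.20 for cyp11a1.1 (adjusted p = 0.0770) and -0.77 ± 0.11 for cyp17a1 (adjusted p = 0.0682), and at 34 °C against 26 °C it was -0.86 ± 0.20 (adjusted p = 0.329) and -0.58 ± 0.11 (adjusted p = 0.280). Both passed at 34 °C against 18 °C when arrays were taken as independent (adjusted p = 0.0176 and 0.0108).

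The flat steroid genes included both aromatases, which turn androgens into oestrogens. The level of cyp19a1a, the ovarian form, was -0.06 and -0.01 at 18 °C, -0.01 and 0.05 at 26 °C, -0.06 and 0.08 at 34 °C and 0.02 on day 4. For cyp19a1b, the brain form, all levels lay between -0.02 and 0.02. The level of cyp21a2, which acts in corticosteroid synthesis, was 0.04 and 0.007 at 18 °C, -0.006 and -0.01 at 26 °C, -0.002 and -0.06 at 34 °C and 0.03 on day 4. In each of the 3 genes the means at 34 and 18 °C differed by less than 0.1. The paralogues cyp11a1.2 (-0.06 ± 0.07 at 34 °C against 18 °C) and cyp17a2 (-0.04 ± 0.08) were flat as well.

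Markers of oocytes and of steroid-making cells were read in the same samples. These lists were chosen with earlier results of these data known. All 26 oocyte markers were lower in both 34 °C samples than in both 18 °C samples, which held for 18.6% of all features. Their median difference was -2.34, and 7 of them passed, where 0.982% of all features did. The median oocyte level stepped down over the day 28 groups in the order of cyp11a1.1 and cyp17a1. Of the 26 markers, 15 had this order without overlap, where 3.77% of all features did. Of 18 markers of ovarian follicle, gonadal or interrenal steroid cells, 17 were flat, none passed, and the median difference was -0.003. The part of ovarian RNA in the levels of cyp11a1.1 and cyp17a1 was not tested.

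**Figure D3:**
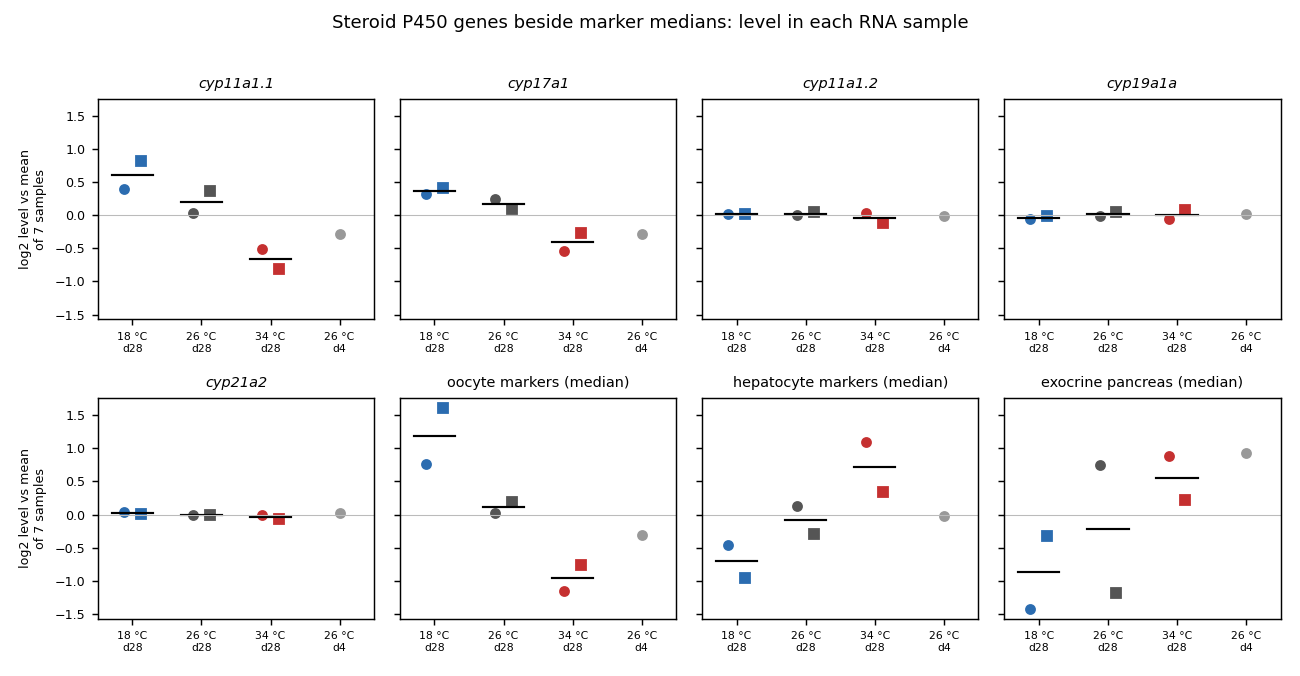
Log2 level relative to the mean of the 7 RNA samples (y axis) by temperature and day (x axis) for 5 steroid P450 genes and for the median of 26 oocyte, 24 hepatocyte and 27 exocrine pancreas markers; circles are replicate 1, squares replicate 2 and lines group means. The levels of cyp11a1.1, cyp17a1 and the oocyte median step down from 18 to 34 °C, while cyp11a1.2, cyp19a1a and cyp21a2 stay near 0.

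In the bile acid families, cyp8b1.1 varied most. The mammalian CYP8B1 enzyme adds the hydroxyl group that sets cholic acid apart from chenodeoxycholic acid. The level of cyp8b1.1 was -0.50 and -0.45 at 18 °C, 0.07 and -0.51 at 26 °C, 0.69 and 0.47 at 34 °C and 0.23 on day 4. Its 34 °C samples lay above all others, while its second 26 °C sample was as low as 18 °C. The difference was 1.06 ± 0.21 at 34 °C against 18 °C (2.08-fold; adjusted p = 0.110) and 0.80 ± 0.21 at 34 °C against 26 °C (adjusted p = 0.362). Its neighbours cyp8b1.2 and cyp8b1.3 were flat.

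The rate-limiting enzyme of bile acid synthesis in mammals is encoded by CYP7A1. The level of zebrafish cyp7a1 was -0.12 and -0.05 at 18 °C, -0.05 and 0.04 at 26 °C, 0.04 and 0.19 at 34 °C and -0.06 on day 4. These levels rank by temperature without overlap but span little, with 0.20 ± 0.07 at 34 °C against 18 °C (adjusted p = 0.317). For cyp27a1.1, of the sterol side-chain hydroxylases, the levels were -0.002 and -0.26 at 18 °C, 0.02 and -0.36 at 26 °C, 0.46 and -0.04 at 34 °C and 0.18 on day 4, with replicate 1 higher in each pair and groups that overlapped (0.34 ± 0.23, adjusted p = 0.705). Also flat were cyp7b1, which acts on oxysterols, and cyp27c1, which falls in this group by its number but in zebrafish converts vitamin A.

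The vitamin families showed no common direction. The level of cyp24a1, which inactivates vitamin D, was 0.10 and -0.23 at 18 °C, -1.08 and 0.34 at 26 °C, 0.15 and 0.45 at 34 °C and 0.27 on day 4. Its range rested on the first 26 °C sample and on 1 of its 2 probes, which stood at -2.12 there. The other probe lay between -0.04 and 0.05 in all 7 samples. For cyp26a1, which degrades retinoic acid, the levels were 0.04 and 0.33 at 18 °C, -0.04 and 0.18 at 26 °C, -0.47 and 0.29 at 34 °C and -0.34 on day 4, again with replicates that disagreed. The related cyp26b1 had levels of -0.08 and -0.02 at 18 °C, 0.04 and -0.06 at 26 °C, 0.12 and 0.12 at 34 °C and -0.12 on day 4. Its 34 °C samples were the highest by a small margin (0.17 ± 0.05, adjusted p = 0.253). The 2 probes of cyp26b1 disagreed in sign at 34 °C against 18 °C (-0.04 and 0.38). The fourth gene, cyp26c1, was flat.

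Of the other families, family 46 held the 2 genes with a range of at least 1. Human CYP46A1 removes cholesterol from the brain by hydroxylating its side chain, and zebrafish have several copies, of which 5 were measured. The level of cyp46a1.2 was -0.29 and -1.28 at 18 °C, 0.25 and -0.07 at 26 °C, 1.01 and 0.24 at 34 °C and 0.14 on day 4, with groups at 18 and 34 °C apart (1.41 ± 0.43, adjusted p = 0.242). For cyp46a1.4 the levels were -0.55 and -0.19 at 18 °C, 0.15 and -0.06 at 26 °C, 0.59 and 0.23 at 34 °C and -0.16 on day 4. The temperatures followed each other without overlap (0.78 ± 0.18, adjusted p = 0.151). The remaining 3 copies differed by -0.03 to 0.08, and cyp20a1 and cyp39a1 by 0.23 ± 0.24 and 0.13 ± 0.07.

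The steps on either side of 26 °C share the 26 °C samples, so their values are given side by side. At 34 °C against 26 °C, 47 P450 genes had a positive and 23 a negative difference; both samples lay higher in 24 (34.3%; 18.6% of all features) and lower in 9 (12.9%; 20.2% of all features). At 18 °C against 26 °C, 23 were positive and 47 negative; both samples lay higher in 4 (5.71%; 11.7% of all features) and lower in 25 (35.7%; 13.5% of all features). In 12 genes (17.1% against 3.63% of all features) the 3 temperatures ranked 18, 26, 34 upward without any overlap. These were cyp2aa2, cyp2aa6, cyp2k19, cyp2n13, cyp2u1, cyp2x9, cyp3a65, cyp46a1.3, cyp46a1.4, cyp4v2a, cyp7a1 and cyp7a1b. Some margins were very small, and cyp46a1.3 was flat. The nearest 26 and 34 °C samples stood at -0.0486 and -0.0484 in cyp2aa2, and at 0.0421 and 0.0426 in cyp7a1.

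By limma's adjusted p, 0 P450 genes passed in either step. At 34 °C against 26 °C the same was true of all features (0%), and at 18 °C against 26 °C 0.00282% of them passed. At an unadjusted p under 0.05 the counts were 9 at 34 °C against 26 °C (8.79% of all features) and 3 at 18 °C against 26 °C (4.43% of all features), the latter being cyp2x7, cyp3a65 and cyp2k19. With arrays taken as independent, 5 P450 genes passed at 34 °C against 26 °C (cyp17a1, cyp2aa7, cyp2x9, cyp4v2b and cyp8b1.1; 3.87% of all features) and 0 at 18 °C against 26 °C (0.0818% of all features).

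Day 4 against day 28 at 26 °C has a single day 4 sample, which was assumed to vary like the other groups. No P450 gene and no feature (0%) passed, and 4 P450 genes had an unadjusted p under 0.05 (6.73% of all features). These were cyp2aa7 (0.21 ± 0.05), cyp2p10 (-0.22 ± 0.06), cyp17a1 (-0.46 ± 0.14) and cyp2ad6 (-0.19 ± 0.07), each with an adjusted p of 0.645. The level of cyp2p10 was -0.04 and 0.02 at 18 °C, 0.09 and 0.04 at 26 °C, 0.06 and -0.02 at 34 °C and -0.15 on day 4, and that of cyp2ad6 was -0.06 and 0.01, 0.02 and 0.12, 0.04 and -0.02 and -0.12 in the same order. In both the day 4 sample was the lowest, by a small amount. The next smallest p was that of cyp3a65 (-0.51 ± 0.20, adjusted p = 0.645), and cyp3c3 was flat at -0.07 on day 4.

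Many of these genes lie side by side in the genome. In the RefSeq gene order, 41 of the 69 members placed there fell into 9 runs of neighbouring P450 genes. The run of 9 genes from cyp2n13 to cyp2p10, which also holds the cyp2ad genes and cyp2v1, had a median difference of 0.69 at 34 °C against 18 °C, with 8 of 9 positive. The equally long run of cyp2aa genes with cyp2ae1 had a median of 0.02, with 6 of 9 positive. The 6 genes of the cyp2k run were all positive, with a median of 0.24. In 7 of the 9 runs flat genes sat beside genes that were not flat, as in cyp8b1, cyp46a1, cyp3c and cyp11a1, whereas cyp1c1 and cyp1c2 were both flat and neither cyp2x7 nor cyp2x9 was. Whether probes of near-identical neighbours bind each other's transcripts was not tested.

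A single probe measured 43 of the 70 genes, among them cyp3a65, cyp2x9, cyp2n13, cyp2u1, cyp8b1.1 and cyp46a1.2. Genes measured by several probes show how far a single probe can be taken. Of 27 such genes, 6 had probes that disagreed in sign when 34 °C was set against 18 °C, and in 7 the probes lay at least 1 log2 unit apart. The probes of cyp2p6 gave -0.05 to 1.91 and those of cyp2r1 0.08 to 1.55, so that each mean joins a probe near 0 with one well above it, and the same held for cyp46a1.4 and cyp4t8. The 5 probes of cyp17a1 ranged from -1.40 to -0.16 and the 3 of cyp11a1.1 from -1.82 to -0.97, all with the same sign. The probes of cyp4v2a (1.77 to 2.26) were closer together.

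**Figure D4:**
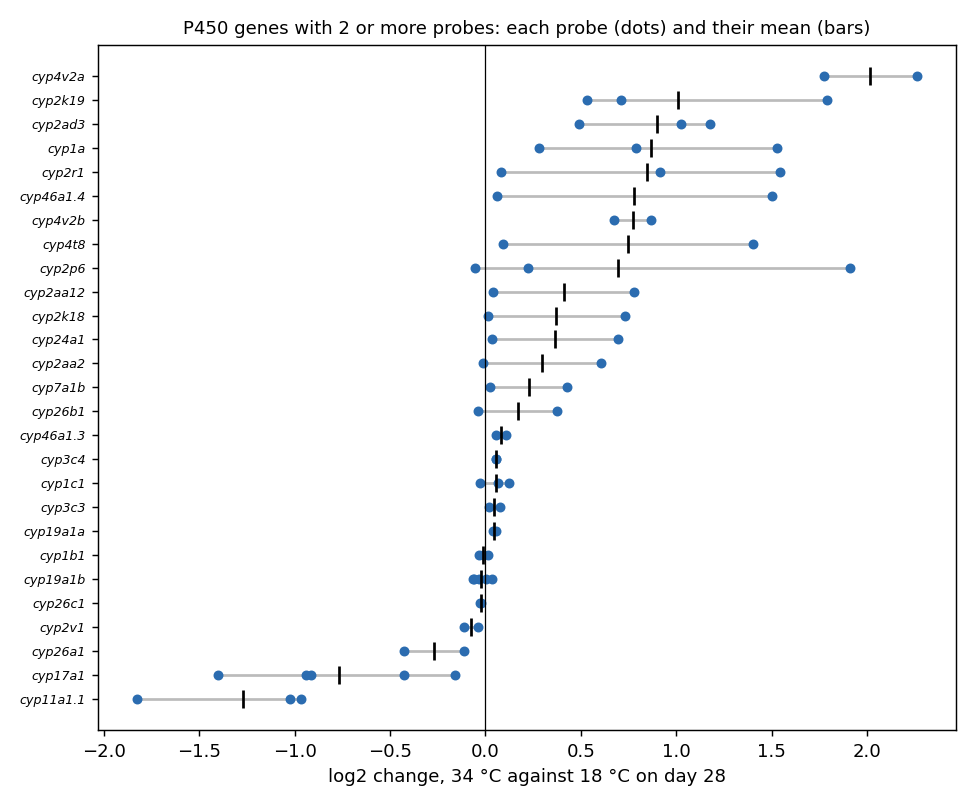
Log2 change at 34 °C against 18 °C on day 28 (x axis) of each probe (dots) for the 27 P450 genes with 2 or more probes (y axis); black bars are the probe means used as the gene's value and grey lines join the probes of a gene. In cyp2p6, cyp46a1.4 and cyp4t8 a probe near 0 accompanies one above 1.

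Genes that serve P450 enzymes were read at 34 °C against 18 °C, where 0.982% of all features passed. These lists, and those of regulators and pathways below, were chosen with earlier results of these data known. Their shares beside those of all features are a description and no test. Of 13 electron donors and haem-protein partners, 1 passed. It was fdx1b, a ferredoxin that feeds mitochondrial P450s, which fell by 0.33 ± 0.04 (adjusted p = 0.0488). Its levels were 0.09 and 0.13 at 18 °C, 0.07 and 0.06 at 26 °C, -0.22 and -0.22 at 34 °C and 0.09 on day 4, so both 34 °C samples were below all others. The oxidoreductase gene pora was flat (-0.01 ± 0.04). For porb the value was 0.04 ± 0.22, and its replicates disagreed, with -0.20 and 0.20 at 18 °C and 0.18 and -0.33 at 26 °C. The largest rises of the list were 1.21 ± 0.14 for pgrmc1 and 1.98 ± 0.41 for cyb5a, neither of which passed. The list had no common direction, with a median difference of 0.04. Of its 13 genes, 8 had an unadjusted p under 0.05 by limma (61.5% against 13.9% of all features). Of these 8, 4 were higher and 4 lower at 34 °C. Of 15 genes of haem synthesis and breakdown, 0 passed by limma and 5 had an unadjusted p under 0.05 (33.3% against 13.9% of all features). Of these 5, 2 were higher and 3 lower at 34 °C. The difference was negative in 10 of the 15 genes, with a median of -0.08. With arrays taken as independent, 4 of the 15 passed, where 8.45% of all features did.

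Of 38 receptors and regulators known to act on P450 genes, 29 had a positive difference (76.3% against 50.6% of all features). Most of these differences were small. The median was 0.06, and 27 of the 38 were flat (71.1% against 70.2% of all features). This list, too, was chosen with earlier results of these data known, so its shares are a description and no test. Of all features 0.982% passed in either direction, and of these receptors and regulators 3 did, all upward. They were esr1 (1.24 ± 0.12, adjusted p = 0.0408), the oestrogen receptor, rxrbb (0.81 ± 0.08, adjusted p = 0.0414), a retinoid X receptor, and nr1h3 (0.66 ± 0.07, adjusted p = 0.0428), the oxysterol receptor. Each had both 34 °C samples above every other sample. The same order held for ahr2, the main aryl hydrocarbon receptor of zebrafish, with a smaller difference that did not pass (0.23 ± 0.04, adjusted p = 0.0817). The levels of nr1i2, the xenobiotic receptor of CYP3A genes in mammals, lay between -0.02 and 0.02 in all samples.

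In the pathways around the enzymes, 1 gene passed in each of 3 lists, beside 0.982% of all features. Of 13 other genes of bile acid synthesis and transport, abcc2, an export pump for conjugates, rose by 0.60 ± 0.07 (adjusted p = 0.0478). Of 19 other genes of steroid metabolism, stard4, a cholesterol carrier, rose by 1.08 ± 0.07 (adjusted p = 0.0326). Of 24 genes of retinoid and vitamin D handling, rdh1, a retinol dehydrogenase, rose by 1.97 ± 0.19 (adjusted p = 0.0411). The list medians were 0.39, 0.06 and 0.07. Of the hepatocyte markers, 23 of 24 had a positive difference with a median of 1.51, and 1 passed, so these P450 and pathway genes moved in samples in which liver markers as a whole were higher; the part of that in each gene was not tested.

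Over all features the number passing at 34 °C against 18 °C, 348, itself depended on single samples and single arrays. It was 2 without the first 18 °C sample, 112 without the second 34 °C sample and 0 without any one of the other day 28 samples. None of the pathway and marker genes given above as passing did so in those last cases. It was also 0 when the arrays were scaled to a common spread. The p-values rest on the spread between the 2 samples of a temperature, pooled over the temperatures and moderated by that of all features. The errors of sample levels that share an array are correlated, which the test ignores.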

How the data were processed

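The authors deposited 1 normalized log2 ratio per probe for each of 8 Agilent arrays; limma is named without a version per the submitters' processing notes. How background was corrected, how arrays were normalized and which spots were filtered is not stated, nor is the log base, taken as log2 since values span -8.96 to 8.03 and log10 ratios of 16-bit signals cannot exceed 4.82. Array SDs were 0.315 to 0.537, and between 43.2% and 82.8% of an array's probes lay within 0.1 of 0. Probes of a gene were averaged. Each feature's 8 ratios were fitted by least squares on 7 RNA samples and a dye term (1 residual degree of freedom). Limma 3.58.1 (R 4.3.3; lmFit, eBayes) then compared the 4 groups (3 residual, 1.63 prior degrees of freedom), with two-sided p-values adjusted by Benjamini-Hochberg over 35434 features. Errors after ± are moderated SEs. The steps were tested on simulated data.

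Named genes were the 5 with the smallest p per comparison, the 2 with the widest range per group, and a list of well-known genes (28 genes in all), besides genes that the text names for a group or alternative. Members, gene lists and this rule were chosen with earlier results of these data known. Gene names follow a RefSeq table of assembly GRCz12tu; the array's build is not named, so no coordinates are given. Alternatives covered the dye term, the model, probes, scaling, the replicate block and left-out samples or arrays.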

Additional observations from a re-analysis of the deposited data

How the results depend on the processing

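Choosing members by current symbol gave the same genes, so it was no separate check. The count of P450 genes that passed was 0 in each comparison. It stayed at 0 without the dye term, with single probes or the median of probes, with scaled arrays, robust variances and the replicate block. With limma on the arrays directly it was 17 at 34 °C against 18 °C and 5 at 34 °C against 26 °C, since that test takes arrays that share a sample as independent. With features that have a gene symbol only it was 1 (cyp3a65) at 34 °C against 18 °C, where fewer features were tested. Leaving out a sample or an array gave 0 to 1 at 34 °C against 18 °C and 0 to 0 elsewhere. The labels do not say that a replicate number marks a shared batch. Deviations from the group means of same-numbered samples correlated across features at -0.151 (18 and 26 °C), -0.133 (18 and 34 °C) and 0.415 (26 and 34 °C). The 26 and 34 °C samples of each number also shared an array, and the part of this in the 0.415 was not tested. The replicate block called 237 features in place of 348. The latter count was 314 without the dye term, 226 with single probes, 296 with the median of probes, 247 with robust variances and 451 with named features only. Scaled arrays brought it to 0, and leaving out 1 array to between 0 and 246.

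At 34 °C against 18 °C 33 genes were followed, among them all that passed with arrays taken as independent. Settings that change only the variances or the features tested cannot turn the sign here. Nor can the replicate block or leaving out a 26 °C sample, so the counts of settings describe the genes and are no test. Of these 33 genes, 23 kept their sign in all 23 settings. In the other 10 the sign turned when a sample or array was left out; the values then ran from -0.0494 to 0.129 for cyp3c3, -0.0503 to 0.389 for cyp1d1, -0.652 to 0.113 for cyp26a1, -0.155 to 2.00 for cyp2ad2, -0.138 to 0.236 for cyp2p10, -0.0251 to 0.116 for cyp19a1a, -0.138 to 0.0403 for cyp21a2, -0.211 to 0.622 for cyp26b1, -0.139 to 0.908 for cyp27a1.1 and -0.138 to 0.253 for cyp2ad6. The same held at 34 °C against 26 °C for cyp8b1.1 (-0.00392 to 1.096), and for day 4 against day 28 for cyp2aa7 (-0.178 to 0.546), cyp2p10 (-0.564 to 0.185) and cyp2ad6 (-0.552 to 0.231). The cause of these turns was not tested. Signal over background is unknown, which limits what can be said of flat genes.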
